A study of Mus musculus with 2 samples.

Results

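The apolipoprotein genes Apoe, Apoc1, Apoc2 and Apoc4 were described in single phagocytes, macrophages and microglia, of mouse optic nerves. They were chosen by name: 4 of the 31053 gene rows of the count table. Of these 4 genes, 3 had at least 1 UMI (unique molecular identifier, standing for 1 captured transcript), and Apoc2 had none. The injured library was made from optic nerves of Wildtype 129S1/SvlmJ mice, males and females, whose nerves had been crushed at 8 weeks of age and were taken 2 weeks later, at 10 weeks. The uninjured library came from nerves of 10-week-old mice of the same strain and genotype with no treatment. There was 1 library per group, the sources used here do not give the number of animals, and the authors kept only cells they had selected as macrophages or microglia. Differences between the libraries therefore have no replicate check, and every interval below is an exact 95% interval that covers counting error only.

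Apolipoproteins coat lipid particles and carry cholesterol and phospholipids between cells. In the nervous system apolipoprotein E is the main such carrier. It is made by astrocytes and, in injured or diseased tissue, by microglia and macrophages, where liver X receptors, sterol-sensing nuclear receptors, can activate it together with the neighbouring apolipoprotein C genes and the cholesterol exporters Abca1 and Abcg1. Apolipoprotein C-I, the product of Apoc1, sits on the same particles and can hinder lipoprotein lipase and particle uptake. Apolipoprotein C-II, from Apoc2, is the cofactor of lipoprotein lipase. Apoc4 encodes apolipoprotein C-IV, the least studied of the group.

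The 4 genes form a cluster on chromosome 7 of mm10 and are all transcribed from the minus strand (GENCODE vM21, all protein-coding). Apoe (ENSMUSG00000002985.16) lies from 19696109 to 19699188, Apoc1 (ENSMUSG00000040564.14) from 19689481 to 19692660, Apoc4 (ENSMUSG00000074336.5) from 19678083 to 19681479 and Apoc2 (ENSMUSG00000002992.17) from 19671579 to 19677941. Gaps of 3448 bases separated Apoe from Apoc1, 8001 bases Apoc1 from Apoc4, and 141 bases Apoc4 from Apoc2. A readthrough model, Gm44805, runs from 19671584 to 19681423 over both Apoc4 and Apoc2. It shared 79.5% of the exonic bases of Apoc2 and 98.8% of its last 400 exonic bases, the end that this 3' chemistry reads. Of Apoc4 it shared 4.69% of exonic bases and none of the last 400. Apoe and Apoc1 shared no exonic base with another gene.

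The start regions of Apoe and Apoc4 are shown because these 2 genes had the closest relation among injured cells of the pairs in the cluster. Both are 300 bases of the minus strand from RefSeq (GRCm38.p6), 250 bases before to 50 after the annotated start, and position -1 is the base before the start. Capitals mark letters of a motif searched for on both strands, and no motif overlapped another.
Apoe, chr7:19699139-19699438, minus strand: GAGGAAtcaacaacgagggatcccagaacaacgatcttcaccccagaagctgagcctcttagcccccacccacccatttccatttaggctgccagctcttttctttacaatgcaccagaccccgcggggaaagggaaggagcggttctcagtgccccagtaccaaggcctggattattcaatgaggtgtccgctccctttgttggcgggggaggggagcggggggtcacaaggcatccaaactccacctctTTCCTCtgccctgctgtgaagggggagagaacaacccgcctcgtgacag
Apoc4, chr7:19681411-19681710, minus strand: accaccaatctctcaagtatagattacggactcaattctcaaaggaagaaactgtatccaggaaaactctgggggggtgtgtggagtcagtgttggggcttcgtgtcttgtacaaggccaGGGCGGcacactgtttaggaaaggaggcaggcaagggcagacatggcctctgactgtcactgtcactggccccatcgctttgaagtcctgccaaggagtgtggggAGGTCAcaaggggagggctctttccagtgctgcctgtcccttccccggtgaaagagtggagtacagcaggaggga

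GAGGAA, the core that the macrophage factor PU.1 recognises, occurred in the Apoe window at -250 on the same strand and at 2 on the other strand, where it reads TTCCTC. It occurred in 28.3% of 32851 promoter windows of the same length. AGGTCA, a half-site of nuclear receptors, occurred in the Apoc4 window at -25 and in the window of Apoc2 at -115 and 43, and in 16.3% of all windows. GGGCGG, a GC box, occurred in the Apoc4 window at -130 and in 35.7% of all windows, and TATAAA, bound by the basal factor TBP, in none of the 3 windows searched and in 13.6% of all. Apoe has 3 starts in the RefSeq table and 1 was searched. These matches describe the letters only.

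The 2 libraries differed in size and in depth per cell. The injured library held 727 cells and 3697992 UMIs, with a median of 1123 UMIs per cell (500 to 53972), and the uninjured library 51 cells and 87499 UMIs, with a median of 888 (458 to 11100). No barcode was shared between them. Cells were read in 3 classes: deep cells of at least 5000 UMIs (144 injured and 4 uninjured), shallow cells with under 1% of UMIs from Malat1, a nuclear RNA (492 injured and 30 uninjured, termed Malat1-poor), and shallow cells with at least 1% (91 injured and 17 uninjured, termed Malat1-rich). Macrophage and microglia markers, 12 of 12 seen in each library, took 43049 CPM of injured and 30286 CPM of uninjured UMIs (counts scaled to one library total, on which 10000 CPM are 1%). Per cell they took 0 to 9.90% in injured and 0 to 13.1% in uninjured cells. A UMI of any of them was seen in 726 of the 727 injured cells and 47 of the 51 uninjured cells. Erythrocyte markers, mostly haemoglobin, took 92.0% of the UMIs of 1 of the 4 deep uninjured cells.

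Apoe was the most abundant gene of the injured library by UMIs. It took 331810 UMIs in injured cells, or 89727 CPM (89422 to 90033), and 1421 UMIs in uninjured cells, or 16240 CPM (15407 to 17107). Per cell, Apoe ranged from 0 to 28.9% of UMIs with a median of 6.54% in injured cells, and from 0 to 17.8% with a median of 0.174% in uninjured cells. The ranges overlapped, and 21 injured cells (2.89%) lay above the highest uninjured cell. Most cells of the libraries lay apart: 97.2% of injured cells lay above the uninjured median and 2 uninjured cells above the injured median.

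Apoc1 had 14681 UMIs in injured cells, or 3970 CPM (3906 to 4035), and ranked 26 by UMIs. In uninjured cells it had 2 UMIs, both in 1 cell, or 22.9 CPM (2.77 to 82.6), so that the injured level was 174-fold the uninjured one (48.1 to 1434). Apoc1 per cell reached 1.84% of UMIs, with a median of 0.160%, in injured cells, and 0.307%, with a median of 0, in uninjured cells. Apoc4 had 1654 UMIs in injured cells, or 447 CPM (426 to 469), and 1 UMI in uninjured cells, or 11.4 CPM (0.289 to 63.7), a ratio of 39.1 (7.01 to 1547). For both genes the width of the interval comes from the 51 uninjured cells, where 3 counts already make 34.3 CPM. The intervals of the ratios of Apoc1 and Apoc4 overlap.

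Apoc2 and Gm44805 each had 0 UMIs in all 778 cells. For Apoc2, 3 counts would make 0.811 CPM in injured cells and 34.3 CPM in uninjured cells, the exact upper limit of a count of 0 is 0.998 CPM for the injured library and 42.2 CPM for the uninjured one, and no fold can be given. Since nearly all of the 3' end of Apoc2 is shared with Gm44805 in the annotation above, and the sources used here do not name the release the authors counted with, a count of 0 in both rows does not give the level of the Apoc2 transcript.

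With 10 CPM added to both levels, all 3 detected genes were higher after injury by 1.5-fold or more. Of the 4021 genes with a UMI in 10% or more of either library's cells, 32.8% were higher and 21.8% lower by this rule. All 3 also passed 4-fold, against 5.57% of those genes. The median log2 ratio of all 4021 genes was 0.17, against 2.47 for Apoe, 6.92 for Apoc1 and 4.42 for Apoc4 on the same scale. Apoe passed the 10% filter in both libraries. Apoc1 and Apoc4 passed it only through injured cells, as did 2440 of the 4021 genes, of which 1066 were higher and 222 lower by the 1.5-fold rule, so their calls are no support beside the levels themselves.

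Depth alone changes how many cells show a UMI, so each cell was also thinned to 500 UMIs, which left 727 injured and 49 uninjured cells. An Apoe UMI then occurred in 97.1% of injured cells (95.6 to 98.2) against 55.1% of uninjured cells (40.2 to 69.3); unthinned, the shares were 99.3% of injured and 58.8% of uninjured cells. For Apoc1 the share was 53.5% of injured cells (49.8 to 57.2) against 2.04% of uninjured cells (0.0517 to 10.9), and unthinned it was 68.0% of injured against 1.96% of uninjured cells. The Apoc4 share was 14.9% of injured cells (12.3 to 17.7) against 2.04% of uninjured cells (0.0517 to 10.9), and unthinned 39.6% of injured against 1.96% of uninjured cells. The share for Apoc4 rests on few UMIs per cell: the thinned injured cells averaged 0.187 Apoc4 UMIs, against 1.54 of Apoc1 and 35.7 of Apoe.

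To look at free RNA, 5 injured cells with at least 2 T cell genes were used, since T cells are no usual source of these apolipoproteins. Doublets were not called, so free RNA and a phagocyte captured with a T cell cannot be told apart in them. The median depth of these 5 cells was 5387 UMIs, against 1123 in the whole injured library. All 5 held an Apoe UMI before thinning (47.8 to 100% of cells). Their share at equal depth is not given here, so it cannot be set against that of the injured library. The share of injured cells with an Apoe UMI is therefore not read as a share of expressing cells. Apoe in these 5 cells was low: 23 of 21770 UMIs, or 0.106%, with 0.0559 to 0.719% per cell. The median was 6.54% in all injured cells and 0.174% in uninjured cells, whose median depths were 1123 and 888 UMIs. A share of UMIs from free RNA can change with depth, so these medians cannot be set against the range above. The part of free RNA in either library was not tested, and these 5 cells are of the injured library only. Neither Apoc1 nor Apoc4 had a UMI in these 5 cells (0 to 52.2% of cells). Without the cells with T cell genes the ratios were 5.56 for Apoe, 175 for Apoc1 and 39.4 for Apoc4.

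**Figure D1:**
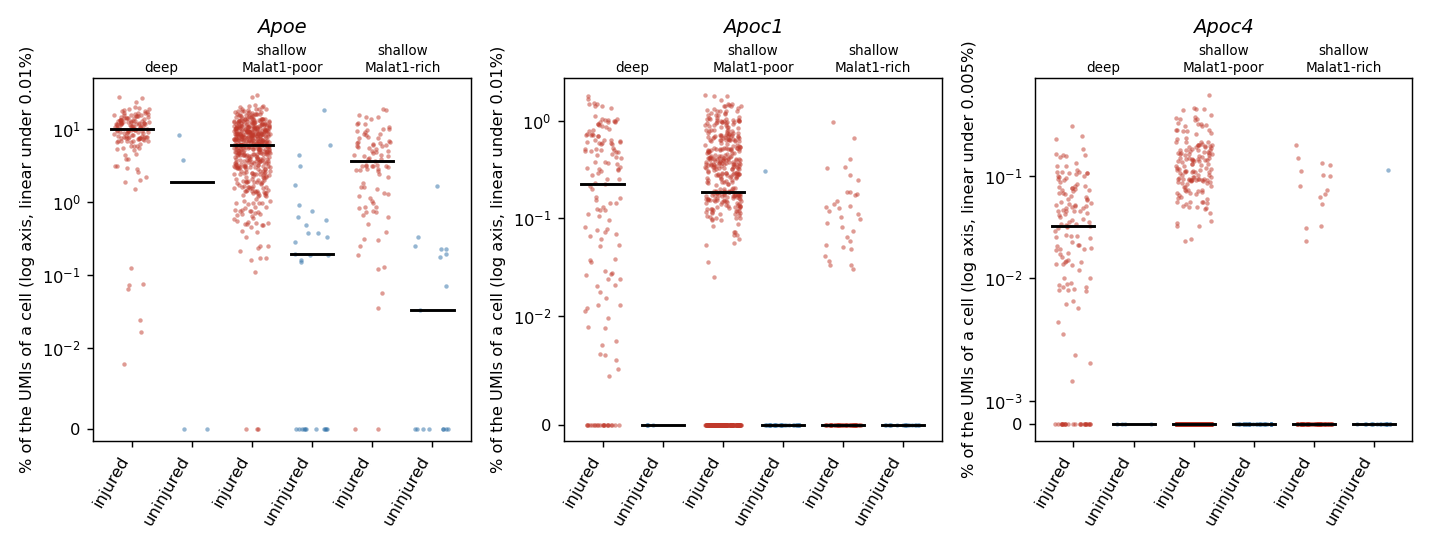
Share of a cell's UMIs taken by Apoe, Apoc1 and Apoc4 in single cells, in percent, on axes that are logarithmic and turn linear near 0. Each point is 1 cell, injured cells stand left of uninjured cells within each class, and black lines mark medians; the deep injured cells have a median of 9.88% for Apoe, and most uninjured cells sit at 0 for Apoc1 and Apoc4.

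The Apoe difference was present in each class of cells, but its size differed between them. The classes were also unlike between the libraries. Mitochondrial genes took a median of 0.503% of UMIs in injured and 8.11% in uninjured Malat1-poor cells, and 10.7% and 3.11% in Malat1-rich cells. Macrophage and microglia markers took 15798 CPM in injured and 35568 CPM in uninjured Malat1-rich cells. The part of these in the ratios was not tested. Deep injured cells had 95379 CPM of Apoe and deep uninjured cells 30582 CPM, a ratio of 3.12 (2.94 to 3.31). Malat1-rich injured cells had 54764 CPM and Malat1-rich uninjured cells 1640 CPM, a ratio of 33.4 (24.7 to 46.4). Malat1-poor injured cells had 71214 CPM and Malat1-poor uninjured cells 10790 CPM, a ratio of 6.60 (5.87 to 7.45). Few uninjured cells set these values: 1099 of the 1421 uninjured Apoe UMIs lay in 2 deep cells. The haemoglobin-rich cell held 11100 of the 35936 UMIs of the deep uninjured cells and 0 Apoe UMIs. Without it the deep ratio would be lower, outside what the counting interval covers, and that value was not computed.

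The uninjured cells with most Apoe UMIs were of different kinds. The first had 769 Apoe UMIs, 8.04% of its 9567, and carried 11 UMIs of homeostatic microglia markers and none of border-associated macrophage markers. The second had 330, 3.72% of its 8863, and held 46 of the 52 border-associated macrophage marker UMIs of the uninjured library. The third, of 662 UMIs, had 118 from Apoe, 17.8%, and 21 from macrophage and microglia markers. None of these 3 cells had an Apoc1 or an Apoc4 UMI; the 2 uninjured Apoc1 UMIs lay in a cell of 652 UMIs with 28 from Apoe. Without the first 2 cells the Apoe ratio was 19.2 (17.3 to 21.5).

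Apoc1 in deep cells took 4252 CPM in the injured library and had 0 UMIs in the uninjured library, at least 50.9-fold higher against 3 counts in the class. In Malat1-rich cells it took 641 CPM in the injured library and had 0 UMIs in the uninjured one, at least 5.47-fold higher, and in Malat1-poor cells 3539 CPM in the injured library against 77.1 CPM in the uninjured one, a ratio of 45.9 (12.7 to 379). Apoc4 took 458 CPM in deep injured cells and had 0 UMIs in deep uninjured cells, at least 5.48-fold higher. The deep uninjured total includes the haemoglobin-rich cell, and the deep bounds of Apoc1 and Apoc4 would be lower without it. In Malat1-poor cells it took 483 CPM in the injured library and had 0 UMIs in the uninjured one, at least 4.18-fold higher. Malat1-rich injured cells had 159 CPM of Apoc4 and Malat1-rich uninjured cells 39.0 CPM (1 UMI), and the ratio of 4.07 had an interval from 0.673 to 166 that includes no difference. With 10 CPM added, all 3 genes passed 1.5-fold in every class, where 49.8% of genes did so for deep, 36.4% for Malat1-rich and 47.8% for Malat1-poor cells.

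Levels of other cell types' markers also differed between the libraries. Of 9 astrocyte markers, 7 were seen in injured cells at 173 CPM in sum (0 to 0.758% per cell, Gjb6 and Fgfr3 at 0), and 3 in uninjured cells at 1074 CPM (0 to 0.826%, with Aqp4, Aldoc, Slc1a2, Gjb6, Aldh1l1 and Fgfr3 at 0). The gene Slc1a3, a glutamate transporter, gave 506 of the 640 injured and 87 of the 94 uninjured UMIs of this sum, and 83 of the uninjured ones lay in Malat1-rich cells, so it rests on 1 gene. All 8 oligodendrocyte markers were seen in each library, at 1185 CPM in injured cells (0 to 9.82% per cell) and 8617 CPM in uninjured cells (0.0627 to 5.52%). Homeostatic microglia markers, 6 of 6 seen in each, took 351 CPM in injured cells (0 to 0.606% per cell) and 2263 CPM in uninjured cells (0 to 0.752%), and the part of this difference in the Apoe, Apoc1 and Apoc4 results was not tested.

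Within the injured library the 3 genes followed the classes differently. Apoe was 1.34-fold higher in deep than in Malat1-poor cells (1.33 to 1.35), and its level climbed with depth up to 15000 UMIs per cell, with 56077 CPM under 600 UMIs, 60793 from 600 to 1000, 70786 from 1000 to 5000, 100547 from 5000 to 15000 and 94516 CPM from 15000 upward. Apoc1 was 1.20-fold higher in deep than in Malat1-poor cells (1.15 to 1.26). Its rise came with the deepest cells: 2520, 2851, 2894 and 2376 CPM in the first 4 depth classes and 4565 CPM in the last, 1.92-fold the class below it (1.80 to 2.05). Apoc4 had 315, 466, 398, 478 and 454 CPM over the same depth classes, and its deep to Malat1-poor ratio of 0.946 (0.831 to 1.08) showed no difference beyond counting error. Since the classes differ in depth and come from 1 library, these intervals say nothing of other nerves.

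Malat1-rich injured cells had less of all 3 genes, by different factors. Relative to Malat1-poor cells, Apoe was at 0.769 (0.752 to 0.786), Apoc4 at 0.329 (0.214 to 0.486) and Apoc1 at 0.181 (0.149 to 0.219). Macrophage and microglia markers as a group took 15798 CPM in these Malat1-rich cells against 42917 CPM in Malat1-poor ones, and mitochondrial genes a median of 10.7% against 0.503% of UMIs; the part of these in the result was not tested. After thinning to 500 UMIs Apoc1 was seen in 19.8% of Malat1-rich (12.2 to 29.4), 59.3% of Malat1-poor (54.9 to 63.7) and 54.9% of deep injured cells (46.4 to 63.2).

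**Figure D2:**
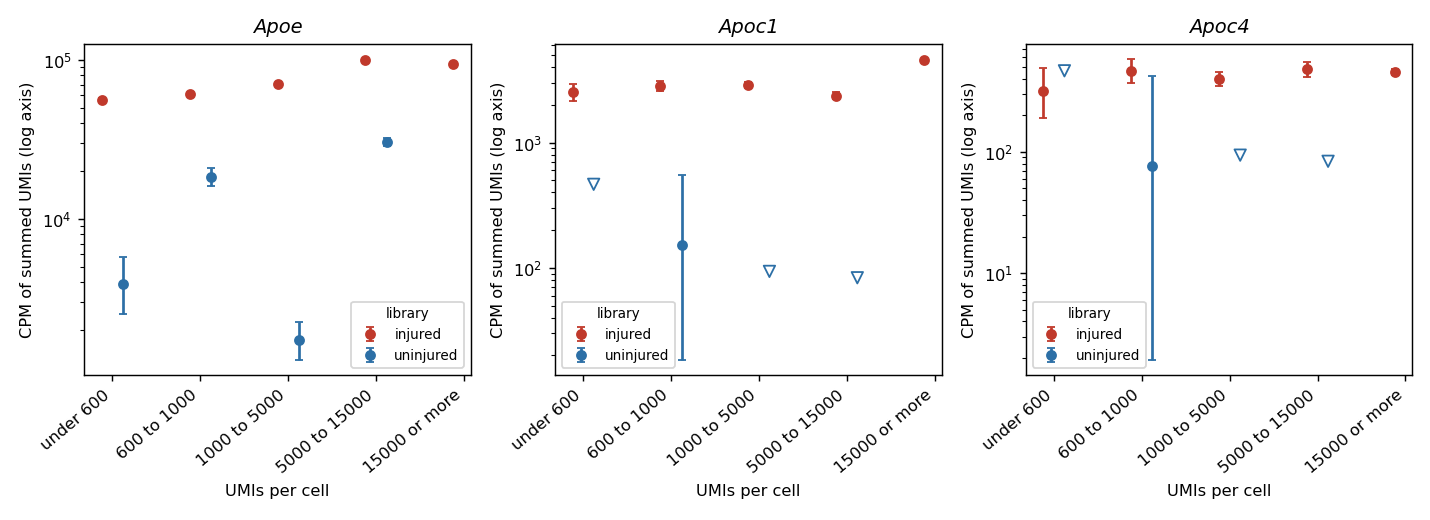
Levels of Apoe, Apoc1 and Apoc4 as CPM of summed UMIs (log axes) in cells grouped by depth, injured left of uninjured. Bars are exact 95% Poisson intervals and open triangles mark the level that 3 counts would give where the uninjured cells had 0 UMIs; the uninjured library has no cell of 15000 UMIs or more, and its Apoe lies below the injured level in each of the other depth classes.

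Counting Apoc1 against Apoe in the same cells removes the share of a cell's RNA that other genes take. The injured library had 4.42 Apoc1 UMIs per 100 Apoe UMIs (4.35 to 4.50), and the uninjured library 0.141 (0.0170 to 0.509). Deep cells had 4.46 in the injured library, and 0 Apoc1 on 1099 Apoe UMIs in the uninjured one, with an exact upper limit of 0.336. Malat1-poor cells had 4.97 in the injured library and 0.714 (0.0861 to 2.60) in the uninjured one, on 2 Apoc1 and 280 Apoe UMIs. Malat1-rich cells had 1.17 in the injured library. In the uninjured one they had 0 Apoc1 on 42 Apoe UMIs, with an upper limit of 8.78 that includes the injured value. These intervals cover counting error only, and 1099 of the 1421 uninjured Apoe UMIs came from 2 cells. For Apoc4 the injured library had 0.498 UMIs per 100 Apoe UMIs (0.475 to 0.523), and the uninjured library 0.0704 (0.00178 to 0.393). In Malat1-rich cells it had 0.290 in the injured library (0.193 to 0.420) and 2.38 in the uninjured one (0.0589 to 14.01), this last value from 1 Apoc4 UMI on 42 Apoe UMIs, so the direction differed there within counting error.

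Among injured cells the Apoc1 to Apoe ratio was not constant. It was 4.97 per 100 in Malat1-poor cells (4.75 to 5.20) but 1.17 in Malat1-rich cells (0.964 to 1.41). It was 2.36 in cells of 5000 to 15000 UMIs (2.22 to 2.52) and 4.83 in cells of 15000 or more (4.74 to 4.92). Apoc4 per 100 Apoe UMIs moved less, with 0.679 in Malat1-poor (0.601 to 0.764), 0.480 in deep (0.454 to 0.506) and 0.290 in Malat1-rich cells (0.193 to 0.420).

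**Figure D3:**
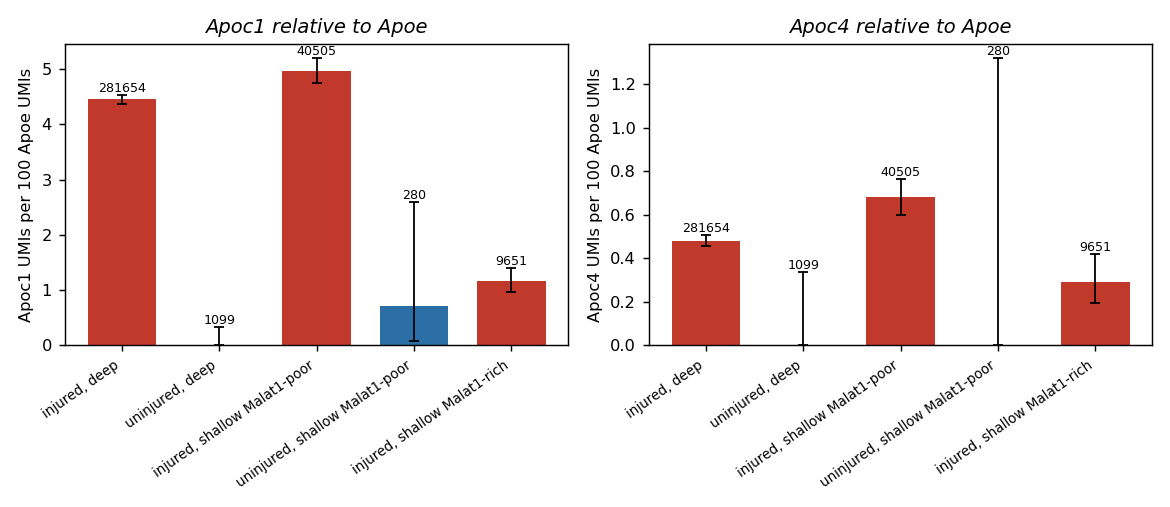
Apoc1 and Apoc4 UMIs per 100 Apoe UMIs in each class of cells, injured left of uninjured, with exact 95% intervals. The number above each bar is the count of Apoe UMIs behind it; the uninjured Malat1-rich cells, with 42 Apoe UMIs, are not drawn, and the deep injured bar for Apoc1 stands at 4.46 where the deep uninjured one is at 0.

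Deep injured cells, thinned to 5000 UMIs each, show how the genes vary from cell to cell at equal depth (144 cells of 1 library). Apoe averaged 497 UMIs (SD 253) with a median of 484 and a range of 1 to 1363. Its variance was 129 times its mean, with no other gene of like level to set it against. Apoc1 averaged 19.2 (SD 22.0) with a median of 10.5, a range of 0 to 91 and 31 cells at 0. Its variance was 25.3 times its mean, against a median of 2.94 for the 68 genes of like level. Apoc4 averaged 2.24 (SD 2.84), ranged from 0 to 18 with 53 cells at 0, and had a variance of 3.59 times its mean, against 1.47 for 361 genes of like level. Relative to the mean, the SD was 0.509 for Apoe, 1.15 for Apoc1 and 1.26 for Apoc4, and the middle 50% of the cells held 347 to 641 Apoe UMIs.

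Over these cells the Spearman correlation was 0.44 between Apoe and Apoc4, 0.20 between Apoe and Apoc1 and 0.18 between Apoc1 and Apoc4, beside a median of -0.02 for Apoe with all 6027 genes seen in at least 20% of the cells. These are descriptions over cells that share a library. By this measure Apoe ranked 1 among all genes for Apoc4, and Apoc4 ranked 4 for Apoe, whereas Apoc1 ranked 74 for Apoe. The relation of Apoe and Apoc1 turned to -0.0047 in the 99 cells of at least 15000 UMIs thinned to 15000. It was 0.0965 without the 7 cells under 1% Apoe described below. Apoe and Apoc4 kept 0.36 and 0.39 in the same settings. As Pearson's r on log2 values the pairs lay closer, with 0.36 for Apoc1 and 0.40 for Apoc4. They also did so in cells of 1000 to 5000 UMIs, with 0.24 for Apoc1 and 0.28 for Apoc4. Without thinning, the values were 0.23 for Apoc1 and 0.52 for Apoc4.

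Ordered by Apoe from low to high and split into 4 groups of 36 cells, these cells had median Apoc4 counts of 0, 1, 2.5 and 3 UMIs. Median Apoc1 counts in the same groups were 1, 16.5, 25 and 7.5, and 17, 5, 4 and 5 cells had no Apoc1. Mean Apoc1 counts were 8.75, 24.1, 27.1 and 16.7. Apoc4 thus climbed with Apoe, while median and mean Apoc1 were highest in the group below the top one. In all 727 injured cells thinned to 500 UMIs, Apoc4 was seen in 15.7% of 389 cells with an Apoc1 UMI (12.2 to 19.7) and in 13.9% of 338 cells without one (10.4 to 18.1), a difference within counting error.

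**Figure D4:**
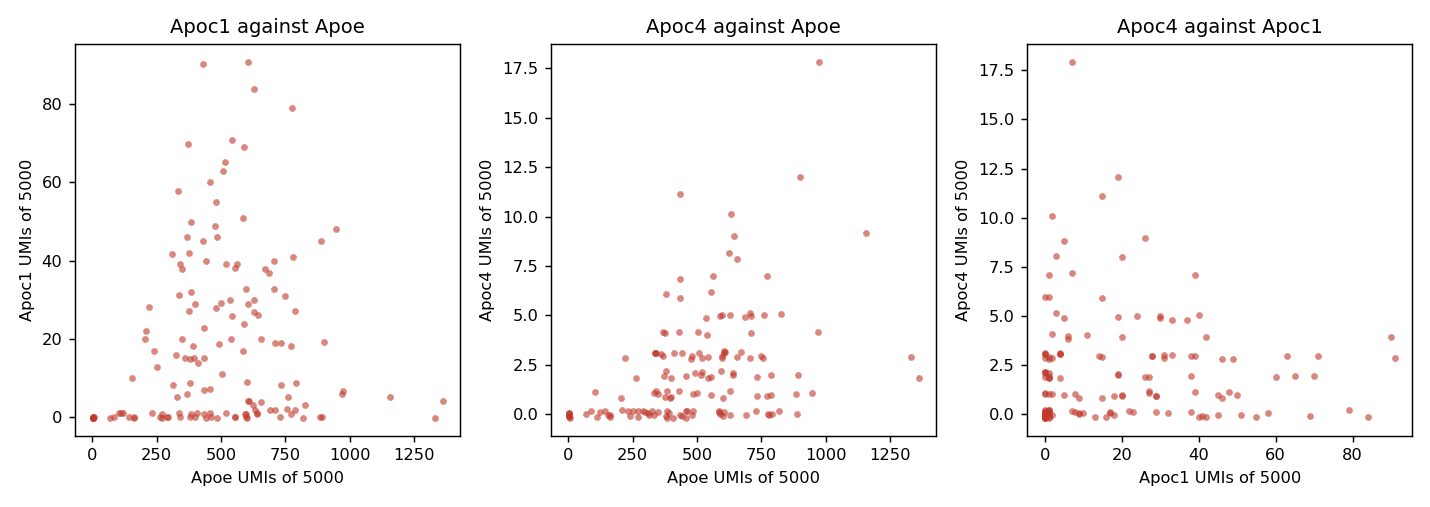
UMIs of Apoe, Apoc1 and Apoc4 in the 144 deep injured cells after thinning each cell to 5000 UMIs, 1 point per cell, with small vertical shifts to part points at the same count. Apoc1 ranges from 0 to 91 UMIs, with a median of 7.5 in the 36 cells with most Apoe and of 25 in the 36 cells below them, while Apoc4 gains with Apoe.

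The 5 genes most like each apolipoprotein gene were taken by Spearman correlation over the same 144 cells, the 7 cells under 1% Apoe described below included. For Apoe they were Ctss, a lysosomal protease (0.51), Trf, which encodes transferrin (0.49), Gdpd3, a lysophospholipase (0.45), Apoc4 (0.44) and Lyz2, a lysozyme (0.40). For Apoc1 they were Cst3, a cysteine protease inhibitor (0.51), Ctss (0.48), Pmp22, a membrane protein of myelin (0.48), Creg1, a lysosomal glycoprotein (0.45), and Ctsl, a lysosomal protease (0.45). For Apoc4 they were Apoe (0.44), Trf (0.42), Ctss (0.38), Npc2, which binds cholesterol in the lysosome (0.37), and Chst2, a sulfotransferase (0.37). Ctss was thus among the 5 nearest genes of all 3, and Trf of Apoe and Apoc4. Ctss also belongs to the macrophage and microglia markers used here, which were low in those 7 cells. The nearest genes were not taken again without them.

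At the other end, by genes named after their values were seen, Apoe ran against the NF-kappaB inhibitor Nfkbia (-0.41), the actin-binding Tmsb10 (-0.40), the stress gene Gadd45b (-0.39) and the cytokine Tnf (-0.39). Of a set of further genes looked at, Apoe had its highest Spearman value, 0.29, with the exporter Abca1. The others were 0.15 with Abcg1, 0.15 with Gpnmb, 0.13 with Plin2 and 0.09 with Malat1. Below 0 were Trem2 (-0.05), Spp1 (-0.09), Cd36 (-0.10), Lpl (-0.11) and the liver X receptor gene Nr1h3 (-0.16). Cd36 and Nr1h3 were seen in only 11.1% and 9.72% of these cells. As Pearson's r on log2 values over the same cells, Apoe had 0.60 with Trem2, 0.40 with Abca1, 0.31 with Spp1 and 0.13 with Lpl. By that measure Gpnmb had 0.29, Plin2 0.27, Abcg1 0.11, Cd36 0.0031, Malat1 -0.13 and Nr1h3 -0.17. The signs for Trem2, Spp1, Lpl, Cd36 and Malat1, and the gene with the highest value, thus depended on the measure.

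Of the 144 deep injured cells, 7 had Apoe under 1% of UMIs, from 0.00798 to 0.124%. Apoc1 had 0 UMIs in all 7 and Apoc4 had 1 UMI in 1 of them. Macrophage and microglia markers took 7569 CPM in these 7 cells, against 45557 CPM in the other 137, and monocyte and neutrophil markers 646 CPM against 21.5 CPM. T cell markers were seen in 3 of the 7 and in none of the 137. The 4 cells without T cell genes held 16 to 240 macrophage and microglia marker UMIs. In the whole injured library 5 cells had no Apoe UMI, and all 5 were shallow, with 542 to 1783 UMIs.

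The 144 deep cells held 79.9% of all UMIs of the injured library, and 84.9% of its Apoe, 85.5% of its Apoc1 and 81.7% of its Apoc4 UMIs. Among Malat1-poor injured cells thinned to 500 UMIs, the 355 with an oligodendrocyte marker UMI had 65341 CPM of Apoe (64157 to 66541), and the 137 without had 71810 CPM (69817 to 73846). Apoc1 was at 2997 CPM with (2748 to 3263) and 3752 CPM without (3307 to 4240) such a UMI, and Apoc4 at 439 CPM (347 to 548) and 365 CPM (236 to 539). Cells that carried myelin RNA thus held somewhat less Apoe and Apoc1; their median depth before thinning was also lower, at 771 against 1125 UMIs.

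Other genes of lipoprotein and sterol handling were read in lists, counting members with a UMI in 5% or more of either library's cells. By the 1.5-fold rule 30.3% of the 6680 genes that pass this filter were higher and 25.3% lower in the injured library, 3.59% were 4-fold higher, and the median log2 ratio was 0.09. A gene that passed the filter through 1 library only tends to be higher there, so the counts below are descriptions. Of the 6680 genes, 2972 passed only through injured cells (1520 higher and 108 lower), 264 only through uninjured cells (all lower) and 3444 through both (504 higher and 1315 lower). Of 14 further genes listed as apolipoproteins 3 were measured, with 0 higher and 2 lower (median log2 ratio -0.68, the value of Apool). Clu, or clusterin, a lipid-carrying chaperone, had 4.33 CPM in injured cells and 57.1 CPM in uninjured cells, 13.2-fold lower (3.78 to 37.7), with only 5 uninjured UMIs, and passed the filter only through uninjured cells. Apod, which binds small lipids, had 38.7 CPM in injured cells and 34.3 CPM in uninjured cells, a ratio of 1.13 (0.378 to 5.53). Apool, with 39 injured and 2 uninjured UMIs, was the other one past the rule downward, with a ratio of 0.461 (0.119 to 3.94).

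Genes that export lipid or remodel particles had 6 of 13 members measured, 4 of them higher and 0 lower (median log2 ratio 3.10), and all 6 passed the filter only through injured cells. Lpl had 918 CPM in injured cells and 34.3 CPM in uninjured cells. Abca1 had 534 CPM in injured cells and 22.9 CPM in uninjured cells. Abcg1, a partner exporter, had 192 CPM in injured cells and 0 UMIs in uninjured cells, at least 5.61-fold higher. Pltp, the phospholipid transfer protein, had 239 CPM in injured cells and 45.7 CPM in uninjured cells, a ratio of 5.22 (2.03 to 19.2), with all 4 uninjured UMIs in 1 cell.

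Lipoprotein receptors and uptake genes had 9 of 15 members measured, with 6 higher and 1 lower (median log2 ratio 0.66); 4 passed the filter only through injured cells and 5 through both libraries. Lrpap1, a chaperone of lipoprotein receptors, had 485 CPM in injured cells and 114 CPM in uninjured cells, a ratio of 4.24 (2.30 to 8.86). Trem2, a receptor for lipids and apolipoproteins, had 2217 CPM in injured cells and 823 CPM in uninjured cells, a ratio of 2.69 (2.14 to 3.45). Lrp6, a Wnt co-receptor, had 32.7 CPM in injured cells and 68.6 CPM in uninjured cells, and its ratio of 0.477 had an interval from 0.213 to 1.33.

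Cholesterol synthesis genes had 6 of 14 members measured, with 1 higher and 5 lower (median log2 ratio -1.73). Only 3 of the 6 passed the filter in both libraries: Sqle and Sc5d passed through uninjured cells alone and 1 gene through injured cells alone. Msmo1, a sterol demethylase, had 19.2 CPM in injured cells and 114 CPM in uninjured cells, 5.95-fold lower (2.74 to 11.6). Hmgcs1, which makes the precursor of mevalonate, had 22.4 CPM in injured cells and 114 CPM in uninjured cells, 5.09-fold lower (2.36 to 9.84). Sqle, squalene epoxidase, had 5 injured and 3 uninjured UMIs, 25.4-fold lower (3.94 to 130), and Sc5d, a sterol desaturase, 35 injured and 4 uninjured UMIs, 4.83-fold lower (1.25 to 13.5). The 1 gene higher, Dhcr7, named after its values were seen, had 45 injured and 0 uninjured UMIs, which does not reach the 3-count level of the uninjured library. The oligodendrocyte markers given above were also lower in the injured library, and their part in this result was not tested.

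Among regulators, 9 of 13 liver X receptor and sterol genes were measured, with 2 higher, 3 lower and 4 between (median log2 ratio -0.22), of which 7 passed the filter only through injured cells and 1 only through uninjured cells. Srebf2, which drives cholesterol synthesis genes, had 11.1 CPM in injured cells and 68.6 CPM in uninjured cells, 6.18-fold lower (2.15 to 14.7). It had only 6 uninjured UMIs and was the gene that passed the filter only through uninjured cells, so its call is no support beside its levels. Insig1, which retains sterol-sensing complexes in the endoplasmic reticulum, had 19.2 CPM in injured cells and 57.1 CPM in uninjured cells, and its ratio of 0.336 had an interval from 0.137 to 1.07. Srebf1 had 23.3 CPM in injured cells and 45.7 CPM in uninjured cells, a ratio of 0.509 (0.192 to 1.91), and Ppard, a fatty acid receptor, 26.0 CPM in injured cells and 11.4 CPM in uninjured cells, a ratio of 2.27 (0.398 to 90.6). The liver X receptor gene Nr1h3, which missed the filter, had 21 injured UMIs and 0 uninjured UMIs, below the 3-count level of the uninjured library.

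All 11 sterol storage and lysosomal release genes were measured, with 5 higher, 1 lower and 5 between (median log2 ratio 0.45); 4 passed the filter only through injured cells and 7 through both libraries. Plin2, which coats lipid droplets, had 501 CPM in injured cells and 11.4 CPM in uninjured cells. Soat1, which esterifies cholesterol for storage, had 181 CPM in injured cells and 11.4 CPM in uninjured cells, a ratio of 15.8 (2.83 to 625). Nceh1, which hydrolyses stored cholesteryl ester, had 111 CPM in injured cells and 0 UMIs in uninjured cells, at least 3.23-fold higher. Lipa, the lysosomal acid lipase, had 226 CPM in injured cells and 45.7 CPM in uninjured cells, a ratio of 4.94 (1.92 to 18.2).

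Of 10 gene neighbours on chromosome 7, 6 were measured, with 3 higher and 2 lower (median log2 ratio 0.27). The 3 higher, Tomm40, Relb and Clptm1, were the 3 that passed the filter only through injured cells, so the mix of directions followed the filter. Nectin2, Bcl3 and Trappc6a passed through both libraries, the first 2 lower and Trappc6a between (log2 ratio -0.29). Clptm1 and Trappc6a were named after their values were seen, and the ratio of Clptm1 was 2.13 (0.581 to 17.7). Tomm40, the mitochondrial import gene next to Apoe, had 40.3 CPM in injured cells and 11.4 CPM in uninjured cells, a ratio of 3.53 (0.623 to 140). Relb, an NF-kappaB subunit, had 43.3 CPM in injured cells and 11.4 CPM in uninjured cells, a ratio of 3.79 (0.670 to 150). Bcl3, a regulator of NF-kappaB, had 12.4 CPM in injured cells and 57.1 CPM in uninjured cells, 4.59-fold lower (1.42 to 11.5), and Nectin2, an adhesion protein, 24.1 CPM in injured cells and 68.6 CPM in uninjured cells, 2.85-fold lower (1.02 to 6.45). The intervals of Tomm40 and Relb, on 1 uninjured UMI each, include no difference. They also include the ratios of Apoe (5.53) and Apoc4 (39.1), so they cannot tell whether these 2 neighbours rose less than those genes.

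**Figure D5:**
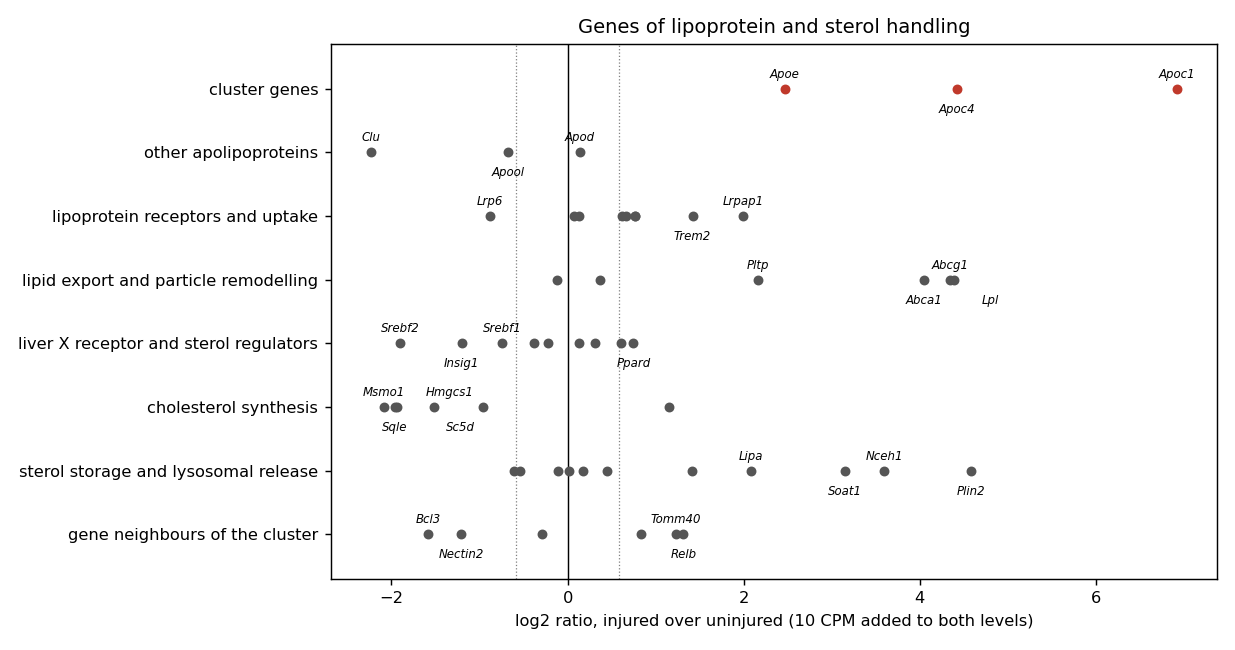
Log2 ratio of injured over uninjured levels, with 10 CPM added to both, for the measured genes of each list; each point is 1 gene, genes named in the text by the rule are labelled and dotted lines mark 1.5-fold. The 3 detected cluster genes, in red, lie at 2.47, 4.42 and 6.92, while cholesterol synthesis genes lie mostly below 0.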

How the data were processed

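Droplet capture of digested optic nerve used 10x Genomics 3' chemistry (version 2), per the labels. Cell Ranger 1.3, Seurat 4.0.3 and bcl2fastq 2.17.1.14 were used with build mm10, per the submitters' processing notes, and no annotation release is named there. The authors deposited raw UMI counts of 778 cells of 200 to 6500 genes, in a table whose second line gives the condition of each cell. Of 31053 gene rows 14428 had a UMI, and 26 carried date-like names.

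Computed here were summed UMIs as CPM with exact Poisson intervals, ratios with exact conditional binomial intervals and shares with Clopper-Pearson intervals, all at 95%. A gene with 0 uninjured UMIs got a bound against 3 counts. No test was possible with 1 library per group. A gene entered the comparison with a UMI in 10% or more of either library's cells (5% for lists). Higher or lower means a ratio of 1.5 with a pseudocount of 10 CPM, which draws scarce genes toward no difference. Named genes were the cluster genes, up to 4 per list with the largest log2 ratio, and the 5 genes most correlated with each cluster gene, leaving out mitochondrial, ribosomal protein and predicted genes. A few genes of the lists are not reported here and were left out of the list counts or of the naming. The members and lists were chosen with earlier results of these data known. Doublets were not called or removed. Alternatives varied weights, thinning, totals, filters, class limits and single cells. Used were Python 3.11.15, numpy 2.4.6, pandas 2.3.3 and scipy 1.17.1, with GENCODE vM21 and RefSeq for positions and sequence.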

Additional observations from a re-analysis of the deposited data

How the results depend on the processing

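No direction of the Apoe, Apoc1 and Apoc4 ratios between the libraries reversed under any alternative run. The Apoe ratio of 5.525 was 6.81 with equal weight per cell, 6.34 thinned to 500 UMIs, 19.2 without the 2 uninjured cells with most Apoe, 4.82 without the haemoglobin-rich cell, 5.09 with totals free of cluster, haemoglobin, mitochondrial and ribosomal genes, 4.90 with the median ratio set to 1, and 3.12 in deep cells, 33.4 in Malat1-rich ones and 6.60 in Malat1-poor ones. The Apoc1 ratio of 174 was 50.4 with equal weight per cell, 37.6 when thinned, at least 106 without the 2 uninjured cells with most Apoc1, at least 50.9 in deep cells, at least 5.47 in Malat1-rich cells and 45.9 in Malat1-poor cells; the Apoc4 ratio of 39.1 was 19.7 with equal weight per cell, 9.17 when thinned, 21.3 with 10 CPM added, at least 12.0 without the 2 uninjured cells with most Apoc4, at least 5.48 in deep cells, 4.07 in Malat1-rich cells and at least 4.18 in Malat1-poor cells. The share difference at 500 UMIs, 51.5 percentage points for Apoc1 and 12.8 for Apoc4, was 65 and 32.75 at 1000 UMIs, and 66.0 and 37.7 without thinning. The deep to Malat1-poor ratio of Apoe, 1.34, was 1.25 with deep cells from 10000 UMIs, 1.32 with a Malat1 limit of 2%, 1.49 with equal weight per cell and 1.37 without deep cells under 1% Apoe, an alternative chosen after seeing the data, as was leaving out cells with T cell genes. The Apoe and Apoc1 correlation of 0.20 was 0.36 as Pearson's r on log2 values and reversed to -0.0047 in cells of at least 15000 UMIs, and was 0.0965 without deep cells under 1% Apoe; the Apoc1 and Apoc4 correlation of 0.18 lay between 0.0999 and 0.28; the Apoe and Apoc4 correlation of 0.44 was 0.28 in cells of 1000 to 5000 UMIs. For these the cause was not tested. Of all genes, 1317 were higher and 876 lower; these counts were 2024 and 1687 with the filter at 5% of cells, 580 and 246 at 20%, and 2982 and 3101 without a filter, where the number of genes compared itself changes. The values not given here stayed within the interval of their main value and, like the gene counts not given, within 1.5 times of it. Apoc2, at 0 UMIs, gave no value under any alternative. No paired analysis was possible because there was 1 library per group. The 87499 uninjured UMIs limit every ratio, most of all for genes with under 10 uninjured UMIs.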
